A study of Mus musculus with 9 samples.

Results

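The epididymal lipocalins described here are 4 genes of mouse chromosome 2, Lcn8, Lcn6, Lcn5 and Lcn12, taken by symbol from a deposited table of 2462 genes. All 4 were found there and all 4 passed the filter on low values. The samples were caput epididymis, the head of the duct in which sperm mature, from mice aged 14 weeks. There were 3 groups of 3 libraries: Wild-type mice with no treatment (WT), mice of Wild-type genotype after efferent duct ligation (EDL), and untreated mice of W/Wv genotype. Ligation closes the ducts that carry fluid and sperm from the testis, and W/Wv mice carry a pair of mutant Kit alleles in all their cells and make hardly any germ cells. The labels name no sham operation, give no time since ligation and no strain, and do not say whether the 3 libraries of a group came from separate animals, so the tests below weigh differences against the spread of libraries, which may be technical. Effects of the operation and of the closed duct cannot be told apart. In W/Wv mice, effects of missing germ cells and of the Kit mutations in other cells cannot be told apart either.

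Lipocalins are small, mostly secreted proteins that fold into a barrel with a pocket for a hydrophobic molecule. In the epididymis the epithelium releases several of them into the lumen, where they meet maturing sperm. Lcn8 and Lcn5 are close relatives that lie side by side. Lcn5 binds retinoids, whereas Lcn8 is known as a product of the initial segment, the stretch of duct nearest the testis. The initial segment depends on factors that arrive from the testis in the lumen, a route called lumicrine signalling.

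The 9 libraries held 3536246 to 4793224 recovered reads in the table. Of 2013 genes tested, 75.3% passed in EDL versus WT and 70.3% in W/Wv versus WT, so a call alone sets no gene apart here. Of the principal cell markers, Krt8, an epithelial keratin, had 207 ± 3.15 FPKM in WT, 215 ± 15.2 in EDL and 214 ± 11.4 in W/Wv (SD, n = 3 each). The other of the 2 measured among 6 listed, Cftr, an anion channel, did not stay level: it had 27.8 ± 2.13 FPKM in WT and fell to 3.22 ± 0.179 and 4.25 ± 0.328 (log2 changes -2.77 and -2.45, adjusted p = 4.9e-11 and 1.5e-10, limma). FPKM is a read count scaled for transcript length and sequencing depth, and levels of different genes are compared on it. The summed level of 11 of 14 germ cell and sperm markers was 142 to 149 FPKM in WT, 15 to 16.2 in EDL and 14.3 to 15.9 in W/Wv. Most of the sum in the models was Odf2, also a protein of centrosomes, with means of 16.5 FPKM in WT, 13.4 in EDL and 12.6 in W/Wv. Neither the part of these markers nor that of Cftr in the lipocalin results was tested. In no library were more than 6 genes at least 2-fold above, or more than 6 at least 2-fold below, both others of its group, but WT library 3 differed for Lcn5, as described with that gene. In such bulk samples fewer cells of a type and less RNA per cell cannot be told apart.

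Lcn8 and Lcn6 fell in both models, and Lcn5 and Lcn12 rose in both. In EDL versus WT, 2 of the 4 rose against a background of 39.4% of all genes tested, and 2 fell against 35.9%. The groups did not overlap for any of the 4, which held for 77.4% of all genes. In W/Wv versus WT, 2 rose and 2 fell against backgrounds of 35.3% and 35.0%, and none of the 4 overlapped, against 71.9% of all genes without overlap. The count of calls among the 4 is therefore near the background of the genes tested. How the genes of the deposited table were chosen is not given, so these shares need not hold for all genes of the tissue. What differed between the members was the direction and the size, from about 2-fold for Lcn6 and Lcn12 to 4909-fold and 7058-fold for Lcn8. Both comparisons use the same WT libraries.

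**Figure D1:**
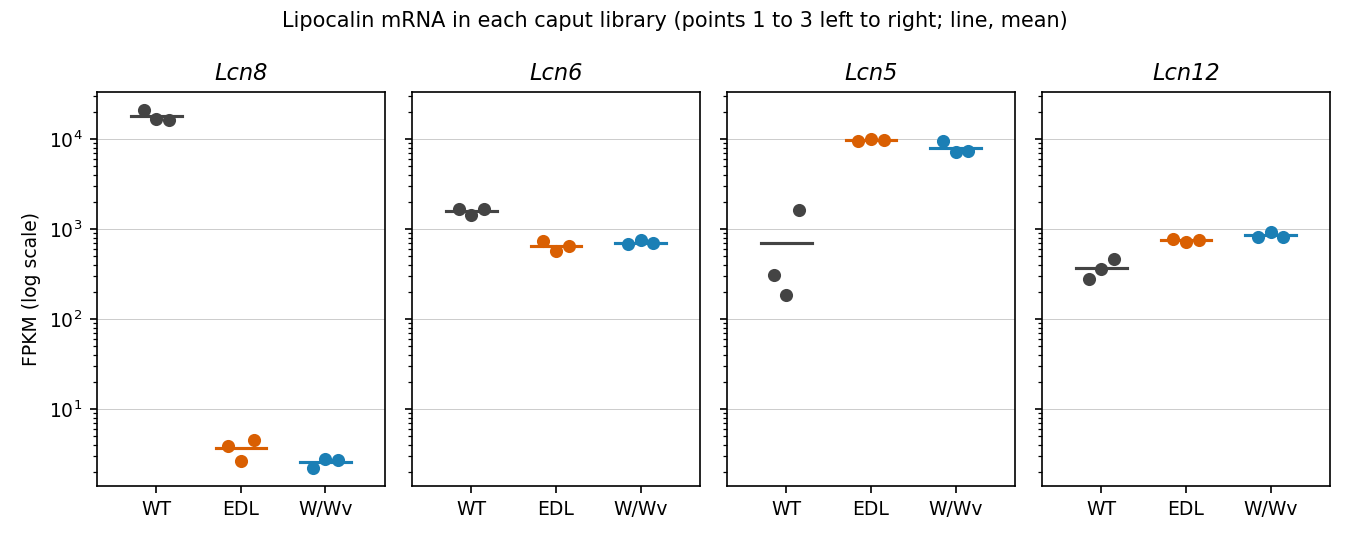
FPKM of each lipocalin (log scale) in the 3 libraries of WT, EDL and W/Wv, with 1 point per library and a line at the group mean. Lcn8 goes from 16243 to 21077 FPKM in WT to under 5 in both models, Lcn5 rises to 7246 to 9906, and Lcn6 and Lcn12 move about 2-fold in opposite directions.

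Lcn8 (NCBI Gene 78076) lies on the plus strand of chromosome 2, 25653118 to 25656217 (mm10), and its longest coding transcript has 7 exons and 651 bases. It had 21077, 16622 and 16243 FPKM in WT libraries 1, 2 and 3. In EDL it had 3.83, 2.64 and 4.52 FPKM, and in W/Wv 2.21, 2.76 and 2.67. Every WT library was far above every library of the other groups, while EDL and W/Wv overlapped. In reads, these were 484395 over the 3 WT libraries, 110 over EDL and 65 over W/Wv. The transcript ranked 3 of all genes in the table by FPKM in each WT library, and between 1400 and 1659 in the other 6. The mean was 4909-fold lower in EDL and 7058-fold lower in W/Wv. On the log2(FPKM + 1) scale the changes were -11.92 (SE 0.15, 95% confidence interval -12.27 to -11.58) and -12.30 (SE 0.15, -12.64 to -11.96), with adjusted p of 6.4e-12 and 6.6e-12 (limma, Benjamini-Hochberg over all 2013 genes). Both were the lowest of all genes tested on this scale, which understates changes that end near 0 FPKM. The cystatin Cst12 came close in W/Wv, at -12.08, with mean FPKM of 6007 in WT and 0.415 in W/Wv. The fold between those means was larger than that of Lcn8.

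Lcn6 (NCBI Gene 620709), which lies downstream on the same strand at 25676638 to 25681608, encodes a lipocalin found on the sperm surface. It has 5 exons and 1254 bases in its longest coding transcript. It had 1680, 1432 and 1659 FPKM in WT, 738, 570 and 652 in EDL, and 672, 749 and 694 in W/Wv. The lowest WT library was above the highest of both models, and the models overlapped each other. Unlike Lcn8, the gene kept a high level, ranking 9 of the table in each WT library and 16 to 19 in the models. The mean was 2.43-fold lower in EDL (log2 change -1.29, SE 0.10, adjusted p = 4.1e-07, limma) and 2.26-fold lower in W/Wv (log2 change -1.17, SE 0.10, adjusted p = 9.2e-07, limma). Counted from the lowest change of all genes tested, it ranked 155 in EDL and 170 in W/Wv. The level of Lcn8 per that of Lcn6 was between 9.79 and 12.5 in the WT libraries and between 0.00329 and 0.00693 in the others.

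Lcn5 (NCBI Gene 13863; 25657932 to 25662230, plus strand, 7 exons and 696 bases in the longest coding transcript) begins 1714 bases after the end of Lcn8. It had 308, 186 and 1613 FPKM in WT libraries 1, 2 and 3, 9572, 9906 and 9780 in EDL, and 9500, 7246 and 7360 in W/Wv. All 6 libraries of the models were above the highest WT library by more than 4-fold. The WT libraries themselves spanned 8.69-fold, against 1.03-fold in EDL and 1.31-fold in W/Wv. The SD of Lcn5 within WT was 1.63 on the log2 scale, the highest but for 2 of all genes tested, whose median was 0.10. The mean was 13.9-fold higher in EDL and 11.4-fold higher in W/Wv. On the log2(FPKM + 1) scale, which weights the low WT libraries more, the changes were 4.43 (SE 0.76, 95% confidence interval 2.6 to 6.26, adjusted p = 0.0016, limma) and 4.14 (SE 0.76, 2.31 to 5.97, adjusted p = 0.0025), or 21.5-fold and 17.6-fold. No other gene tested rose further on that scale in either comparison.

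WT library 3 set much of that spread. Without it the log2 change of Lcn5 was 5.34 in EDL (adjusted p = 5.5e-08, limma) and 5.05 in W/Wv (adjusted p = 8.5e-08). Without WT library 2, the lowest, the changes were 3.79 and 3.5. In library 3 Lcn5 was 6.54-fold above the mean of WT libraries 1 and 2, Lcn12 was 1.48-fold above, Lcn6 1.07-fold, and Lcn8 was at 0.862 of it. Only 5 of the 2013 genes were at least 2-fold above both other WT libraries there: Lcn5, Defb15, S1pr3, Mir8102 and Snora43. They were picked for that after their values were seen. Smaller differences were not limited to these genes. In chi-square of reads per gene, library 3 was at 26.18 from library 1 and 20.79 from library 2. Libraries 1 and 2 were at 13.98 from each other. Defb15, a beta-defensin, had 252 and 138 FPKM in WT libraries 1 and 2, 872 in library 3 and 1773 to 2143 in the models. S1pr3, a receptor for sphingosine 1-phosphate, had 2.39 and 2.07 FPKM, 5.93 in library 3, and 19.8 to 30.8 in the models. The small RNA gene Snora43 had 6.09 and 10.2 FPKM, 27.8 in library 3 and 5.14 to 13.2 in the models, and the microRNA gene Mir8102 was listed at 0 in both, at 6.94 in library 3 and at 0 to 12.3 in the models. For Lcn5, Defb15 and S1pr3, WT library 3 was thus between the other WT libraries and the models, while Snora43 in that library was above the models and Mir8102 within their range. For Lcn8 it was the lowest of WT, close to library 2.

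Lcn12 (NCBI Gene 77701) lies apart from the other members, on the minus strand at 25490845 to 25494061, with 6 exons and 716 bases in its longest coding transcript. Its rat counterpart is known to bind retinoic acid. It had 275, 356 and 466 FPKM in WT, 782, 711 and 763 in EDL, and 824, 918 and 810 in W/Wv. The lowest library of either model was above the highest of WT, which was again library 3. The mean was 2.06-fold higher in EDL (log2 change 1.07, SE 0.15, adjusted p = 7.9e-05, limma) and 2.33-fold higher in W/Wv (log2 change 1.25, SE 0.15, adjusted p = 2.6e-05, limma). Among all genes tested its rise ranked 124 from the top in EDL and 80 in W/Wv. Lcn5 and Lcn12 were near each other in WT libraries 1 and 2, with an Lcn5 level per Lcn12 of 1.12 and 0.521, and apart in library 3, with 3.46. In the models this ratio was 7.89 to 13.9.

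**Figure D2:**
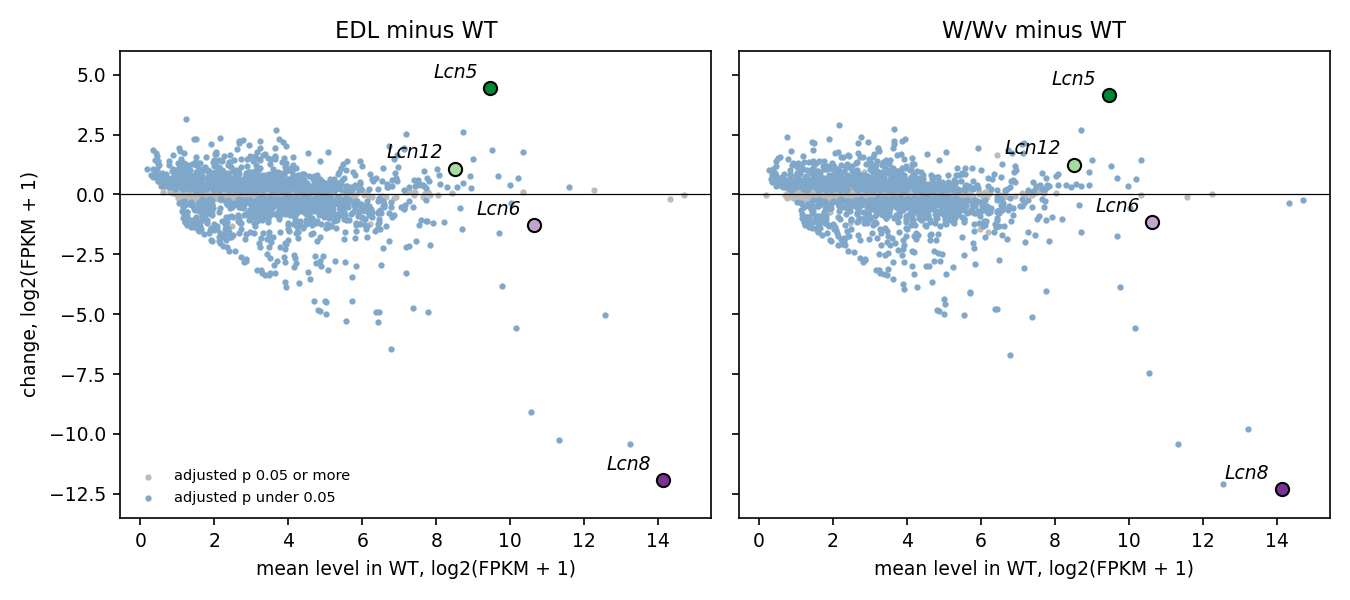
Change of every gene tested, EDL minus WT on the left and W/Wv minus WT on the right, on the log2(FPKM + 1) scale against the mean WT level on the same scale, with genes of adjusted p under 0.05 in blue and the 4 lipocalins as large points. Lcn8 has the lowest change and Lcn5 the highest in both panels, and Lcn6 and Lcn12 lie among other genes.

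Added up, the 4 lipocalins had 20639 ± 2440 FPKM in WT, 11161 ± 56.7 in EDL and 9593 ± 1217 in W/Wv (SD, n = 3 each). No test was made on this sum, which was formed over chosen members. The lowest WT library, at 18595 FPKM, was above the highest of the models, at 11199. The 4 genes took 4.44% ± 0.412 of the reads in the table in WT, 2.82% ± 0.0501 in EDL and 2.53% ± 0.314 in W/Wv. Lcn8 made up 81.3% to 90.3% of the summed FPKM in the WT libraries, and Lcn5 between 81.3% and 88.5% in the other 6. Lcn5 thus stood where Lcn8 had been, ranked 3 of all genes by FPKM in each EDL and W/Wv library, with 7246 to 9906 FPKM against the 16243 to 21077 of Lcn8 in WT. Without Lcn8, the other members summed to 2658 ± 947 FPKM in WT, 11158 ± 56.8 in EDL and 9591 ± 1217 in W/Wv.

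**Figure D3:**
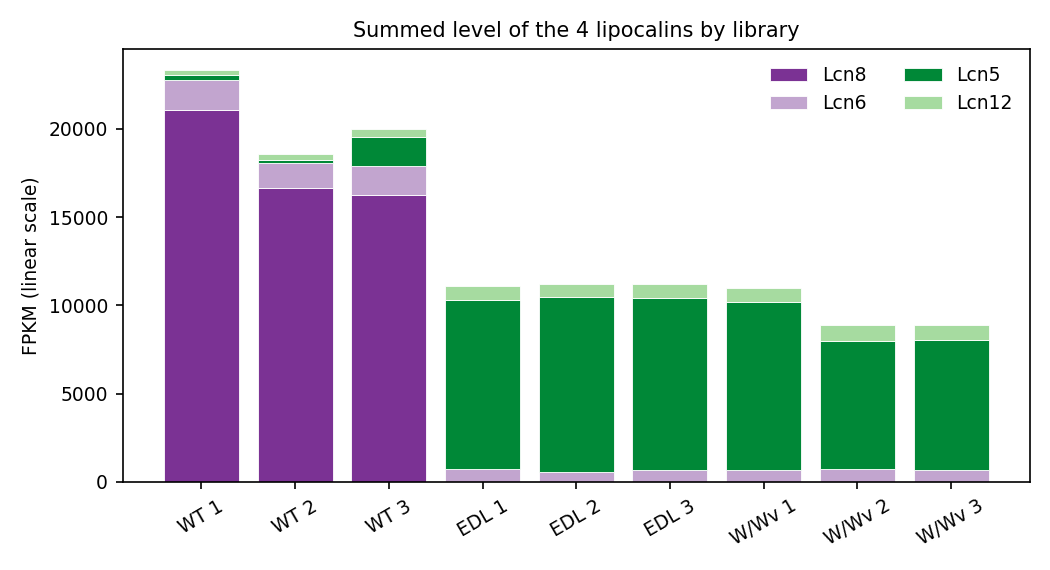
Stacked FPKM (linear scale from 0) of Lcn8, Lcn6, Lcn5 and Lcn12 in each of the 9 libraries. The WT bars reach 18595 to 23340 FPKM and are mostly Lcn8, and the EDL and W/Wv bars reach 8866 to 11199 and are mostly Lcn5.

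The order of the members changed with the sum. In WT libraries 1 and 2 Lcn8 was followed by Lcn6, and Lcn5 and Lcn12 came below it in either order. In WT library 3 Lcn5, at 1613 FPKM, was level with Lcn6, at 1659. In the models the order was Lcn5, Lcn12, Lcn6 and Lcn8 in each of the 6 libraries. The ranges of Lcn12 and Lcn6 overlapped in EDL, at 711 to 782 and 570 to 738 FPKM, and did not overlap in W/Wv, at 810 to 918 and 672 to 749.

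The models were then compared with each other. They differ in the state of the duct, in germ cells made, in Kit genotype and in the operation. These differences cannot be told apart here. None of the 4 members passed the test by limma, against a background of 14.0% of genes called, with 6.95% (140 genes) called higher in W/Wv and 141 genes called lower. At an unadjusted p under 0.05 there was 1, Lcn8. By edgeR and DESeq2 none passed either, with Lcn5 given no adjusted p by DESeq2. Lcn8 had a log2 change of -0.38 in W/Wv relative to EDL (95% confidence interval -0.72 to -0.03, adjusted p = 0.14, limma). This is a fold of 0.77 in FPKM + 1, with an interval of 0.606 to 0.978. At such low levels it understates the change in FPKM, whose mean was 1.44-fold lower in W/Wv. Without EDL library 2, the one with the lowest Lcn8 of that group, the log2 change was -0.54 with an adjusted p of 0.022 (limma). The fold was 1.08 for Lcn6, with an interval of 0.928 to 1.26, and 1.13 for Lcn12, with 0.893 to 1.43. For Lcn5 it was 0.817, with a wide interval of 0.23 to 2.91, since the fit shares its estimate of the spread with the WT libraries. The W/Wv and EDL libraries did not overlap for Lcn5 or Lcn12, as for 38.7% of all genes tested. In a fit of these groups alone, the adjusted p was 0.060 for Lcn5 and 0.072 for Lcn12 (limma). The intervals leave room for differences of up to about 1.4-fold for Lcn12 and larger ones for Lcn5.

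Lcn8, Lcn5 and Lcn6 share 1 strand and follow each other, with 1714 and 14407 bases between them, while Lcn12 lies 159056 bases before Lcn8. No other annotated gene overlapped any of the 4 in GENCODE M21, and no transcript of another gene shared a stretch of 50 bases with their longest coding transcripts, members included. Reads of the neighbours could therefore be told apart at that length. The promoter windows of Lcn8 and Lcn5 are shown because these adjacent genes moved furthest and in opposite directions. Each runs from 250 bases before to 50 bases after the transcript start in the RefSeq table of GRCm38.p6, the assembly that mm10 names, which need not be the first base of the gene, at chr2:25652868-25653167 for Lcn8 and chr2:25657702-25658001 for Lcn5, both on the plus strand. Capitals mark matches to the motifs searched.
Lcn8: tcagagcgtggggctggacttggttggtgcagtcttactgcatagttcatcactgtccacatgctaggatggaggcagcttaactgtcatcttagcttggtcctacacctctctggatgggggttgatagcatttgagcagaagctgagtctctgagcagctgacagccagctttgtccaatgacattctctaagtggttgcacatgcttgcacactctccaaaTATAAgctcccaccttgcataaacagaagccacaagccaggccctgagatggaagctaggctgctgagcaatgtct
Lcn5: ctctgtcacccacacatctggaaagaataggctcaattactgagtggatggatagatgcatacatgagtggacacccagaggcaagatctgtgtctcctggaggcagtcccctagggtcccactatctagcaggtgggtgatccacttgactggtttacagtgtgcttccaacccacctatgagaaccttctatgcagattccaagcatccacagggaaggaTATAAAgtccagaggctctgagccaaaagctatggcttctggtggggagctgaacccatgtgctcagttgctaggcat
Both windows carry TATAA shortly before the start, with its first base 26 bases before in Lcn8 and 28 in Lcn5, where it reads TATAAA. Lcn6 has TATAA at 25 bases before its start, and Lcn12 has none. TATAA was added to the search after the sequences were seen. It lies 20 to 40 bases before the start in 3.52% of 32817 promoter windows of that length.

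The motif search covered both strands of all 4 windows and is a description of letters only. AGAACA, 1 arm of the site of androgen and glucocorticoid receptors, occurred once in Lcn6, 189 bases before the start, and once in Lcn12, 203 bases before it, and is in 19% of all windows. TATAAA, within which TATAA lies, was found in Lcn5 alone and is in 13.6% of all windows. TGTTTAC (forkhead), CCGGAAGT and AGGAAG (ETS), TTGCGCAA (C/EBP) and AGGTCA (1 arm of nuclear receptor sites) had no match in any of the 4, and are in 3.65%, 3.89%, 35.4%, 0.183% and 16.3% of all windows. The windows held 1 CpG in Lcn8, 3 in Lcn6, 0 in Lcn5 and 4 in Lcn12, against a median of 7 over all windows, and 31.4% of all windows held 3 or fewer. Members that fell and members that rose were not separated by these features.

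Other genes of the locus were examined within 500 kb of the start of Lcn8, where 68 further genes are annotated. Of these 8 were in the table and 5 were tested. In EDL versus WT 3 rose and 2 fell, with a median log2 change of 0.41 against 0.05 over all genes tested. In W/Wv versus WT 2 rose, 2 fell and 1 did not pass, with a median of 0.22 against 0.02. The nearest was Fcna, a ficolin of innate immunity, whose start is at -28.5 kb from that of Lcn8. It fell from 28.6 ± 2.67 FPKM in WT to 11.7 ± 0.991 in EDL and 10.7 ± 1.28 in W/Wv (SD, n = 3 each; log2 changes -1.22 and -1.34, adjusted p = 3e-07 and 1.4e-07, limma). Kcnt1, a potassium channel at 210.7 kb, rose from 2.4 ± 0.37 to 8.88 ± 0.368 and 7.94 ± 0.904 FPKM. Dpp7, a lysosomal peptidase at -300.8 kb, rose in EDL, from 3.09 ± 0.0843 to 12.8 ± 0.565 FPKM, and had 3.82 ± 0.806 in W/Wv (adjusted p = 0.081 against WT, limma). Man1b1, a mannosidase of the secretory pathway, fell by 0.15 and 0.16 on the log2(FPKM + 1) scale. Ndor1, an oxidoreductase, rose by 0.41 and 0.23.

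**Figure D4:**
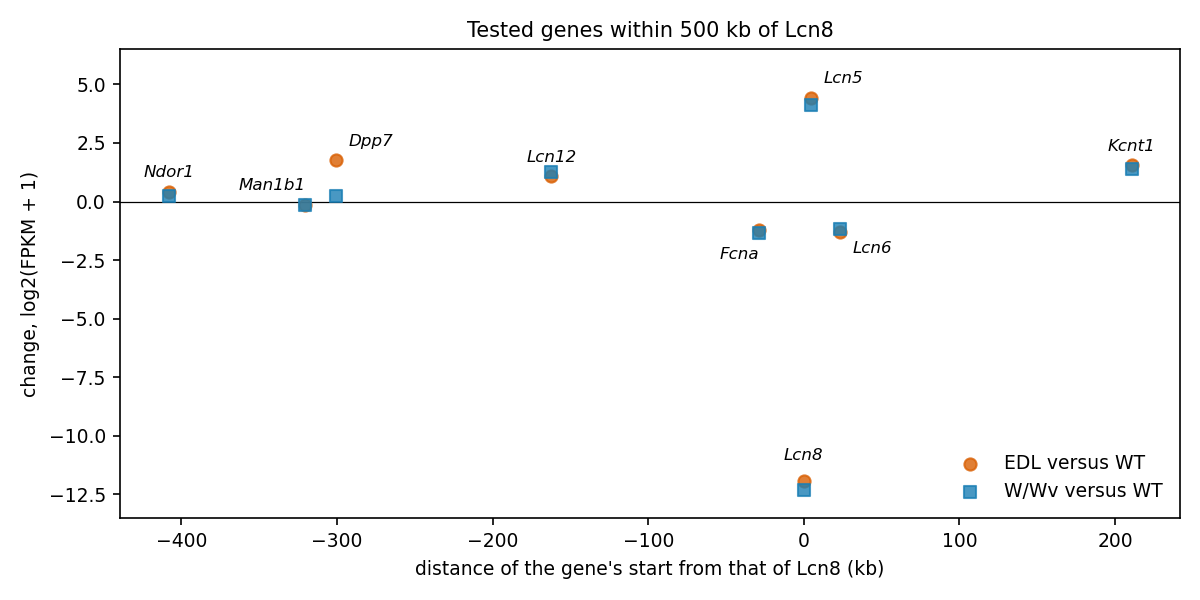
Log2 change in EDL (circles) and W/Wv (squares) against WT of the 9 tested genes within 500 kb of Lcn8, by the distance of their starts from it in kb. Lcn8 at 0 kb and Lcn5 at 4.8 kb have the extreme changes. Fcna, Lcn6 and, at -320.4 kb, Man1b1 are below 0, and Lcn12, Kcnt1, Dpp7 and Ndor1 are above it.

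The wider lipocalin fold was read from a list of 28 secreted relatives and intracellular fatty acid and retinoid carriers. Of these 2 were in the table, and the others were not analysed here. Fabp5, an intracellular fatty acid carrier, had a WT level of 12.8 ± 0.737 FPKM and fell to 3.71 ± 0.611 after ligation and 3.65 ± 0.823 in W/Wv (log2 changes -1.55 and -1.58, adjusted p = 7.4e-07 and 6.8e-07, limma). Orm1, a plasma lipocalin, stayed under the filter, with 10, 4 and 8 reads over the WT, EDL and W/Wv libraries. Of 24 genes that handle retinoids, the ligands of Lcn5, 3 were tested. Rara, a retinoic acid receptor, rose in both models, with 7.83 ± 0.47 FPKM in WT, 11.8 ± 0.24 after ligation and 12.1 ± 1.33 in W/Wv (log2 changes 0.54 and 0.56, adjusted p = 5e-05 and 3.7e-05, limma). Lrat, which esterifies retinol, had 1.64 ± 0.0702 FPKM in WT, was at 1.59 ± 0.0502 after ligation (adjusted p = 0.80, limma), and fell to 1.1 ± 0.334 in W/Wv (adjusted p = 0.012). Lrp2, an endocytic receptor that takes up lipocalin cargo, had 3.37 ± 0.713, 2.75 ± 0.113 and 3.4 ± 0.558 FPKM and passed in neither comparison.

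Of 29 genes of lumicrine signalling 4 were tested, and in EDL 3 fell and 1 rose, while in W/Wv 2 fell, 1 rose and 1 did not pass. Ovch2, a secreted protease of the initial segment, had a level of 1043 to 1274 FPKM in WT, 22.5 to 23.3 in EDL and 22.4 to 23.9 in W/Wv. The kinase Map2k1 fell from 29.4 ± 1.2 to 23.5 ± 0.614 and 24.3 ± 0.363 FPKM, and the kinase Src rose from 17.6 ± 0.673 to 20.2 ± 0.292 and 19.9 ± 0.961. Fos, an immediate early gene, fell in EDL, from 6.12 ± 2.98 to 0.859 ± 0.117 FPKM (adjusted p = 0.00023, limma), and had 5.18 ± 1.52 in W/Wv (adjusted p = 0.64). Of 21 transcription factors of the caput 2 were tested, and 1 fell and 1 rose in each model. Gata3 fell from 16.3 ± 1.21 FPKM to 13.6 ± 0.665 and 12.9 ± 1.03, and Pax2, a factor of duct epithelium, rose from 8.16 ± 0.133 to 24.4 ± 0.808 and 23.2 ± 2.42.

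Of 23 other secreted caput proteins, 13 were tested. In EDL 6 rose and 4 fell, leaving 3 without a call, and in W/Wv 5 rose and 7 fell, leaving 1. Their median log2 changes were -0.03 and -0.21, against 0.05 and 0.02 over all genes tested. The 4 of highest mean FPKM are given here, and 3 of them changed far less than Lcn8 or Lcn5. Gpx5, a secreted glutathione peroxidase, had 25122 to 28825 FPKM in WT, 25001 to 27349 in EDL and 22510 to 24023 in W/Wv. Spag11b, a defensin-like peptide, had 20494 ± 987, 17844 ± 1571 and 16098 ± 889 FPKM, and Wfdc10, a protease inhibitor, 3068 ± 67.7, 3813 ± 363 and 2862 ± 54.1. Cst12, a cystatin, did differ widely, with 6007 ± 771 FPKM in WT, 183 ± 19 in EDL and 0.415 ± 0.36 in W/Wv. Lcn8, by contrast, had reads in every library of both models. A choice by mean FPKM favours genes that stay high. Among the tested genes of this list not chosen, log2 changes in EDL and W/Wv ran from -10.24 and -10.43 for Cst8 to 2.71 and 2.72 for Defb35. Crisp1 was at -9.07 and -7.47.

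Of the germ cell and sperm markers, 9 were tested and all 9 fell in both models, against 35.9% and 35.0% of all genes tested. Prm1, Prm2, Tnp1, Tnp2, Smcp, Ldhc and Gapdhs reached 1 FPKM in WT libraries only. They passed the filter through the group where they were high, so the filter itself set the direction of their change. Dkkl1 and Odf2 were above 1 FPKM in the models too. Dkkl1, an acrosomal protein, had 81.9 ± 5.29 FPKM in WT, 1.79 ± 0.278 in EDL and 2.04 ± 0.383 in W/Wv. Prm2 and Prm1, the protamines that pack sperm DNA, had 348 and 118 reads over the WT libraries, 1 and 1 over EDL, and 0 and 1 over W/Wv. Odf2, a protein of sperm tails and centrosomes, fell from 16.5 ± 0.407 FPKM to 13.4 ± 0.309 and 12.6 ± 0.704. Plin4 was the only 1 measured of 5 adipocyte markers listed. It had 6.45 ± 0.701 FPKM in WT and rose to 13.4 ± 0.877 in EDL and 11.8 ± 1.29 in W/Wv. Hba-a1 was the only 1 measured of 4 listed for blood. It had 58.3 to 97.2 FPKM in WT, 8.09 to 78.8 in EDL and 18.4 to 33.1 in W/Wv. Hba-a1 passed in neither comparison. The mast cell markers summed to 0.498 to 0.66 FPKM in WT, 0.628 to 0.823 in EDL and 0 in W/Wv. All 3, Cpa3, Cma1 and Mcpt4, stayed under the filter and were not tested. They had 10, 20 and 2 reads over the WT libraries, 9, 25 and 8 over EDL and 0 over W/Wv. The part of these markers in the lipocalin results was not tested. Markers of basal cells, clear and narrow cells, smooth muscle, fibroblasts, endothelium, macrophages, T cells, efferent ducts and the distal duct were not analysed here.

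The genes most like each lipocalin were taken by Pearson's r of log2(FPKM + 1) over the 9 libraries, 3 for each member. These values describe a likeness that the 3 groups largely set, and carry no test. Most like Lcn8 were Cst8, a cystatin-related protein, which had the highest r, and 9230117E06Rik and Dapl1, both with 0.999. Cst8 had 2557 ± 335 FPKM in WT, 1.11 ± 0.249 in EDL and 0.846 ± 0.0793 in W/Wv, Dapl1 had 109 ± 14.2, 0.248 ± 0.12 and 0.0469 ± 0.0812, and 9230117E06Rik had 26.9 ± 0.731 in WT and was listed at 0 in all 6 libraries of the models. Most like Lcn6 were Mapkap1, a subunit of the TORC2 kinase complex (r = 0.995), Stx19, a syntaxin of membrane traffic (0.992), and Zhx1, a zinc-finger homeobox protein (0.991). Stx19 fell from 8.18 ± 1.66 FPKM to 1.24 ± 0.177 and 1.6 ± 0.0273, and Mapkap1 from 30.7 ± 1.34 to 23.2 ± 0.849 and 24.2 ± 0.339.

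Most like Lcn5 were Wars, a tryptophanyl-tRNA synthetase (r = 0.994), Nxf3, a relative of mRNA export factors (0.990), and Ap1s2, an adaptor subunit of vesicle coats (0.989). Nxf3 rose from 16.1 ± 4.34 FPKM to 36.4 ± 1.96 and 33.8 ± 1.92, and Ap1s2 from 818 ± 121 to 1373 ± 19.7 and 1297 ± 72.4. These rises were 1.16 and 0.76 in EDL on the log2(FPKM + 1) scale, and that of Wars was 0.43, against 4.43 for Lcn5. Most like Lcn12 were Cyp2j6, a cytochrome P450 (r = 0.994), 9130008F23Rik (0.985) and Itm2a, a membrane protein (0.983). The level of 9130008F23Rik was low, at 0.392 to 0.714 FPKM in WT and 0.978 to 1.16 in the models. It passed the filter through the models only. Itm2a had 10.6 ± 3.11 FPKM in WT and rose to 18 ± 0.694 after ligation and 22.3 ± 1.74 in W/Wv. Between members, r was 0.98 for Lcn8 with Lcn6, 0.95 for Lcn5 with Lcn12, and -0.93 for Lcn8 with Lcn5. None of the genes most like a member lay within the lipocalin locus.

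**Figure D5:**
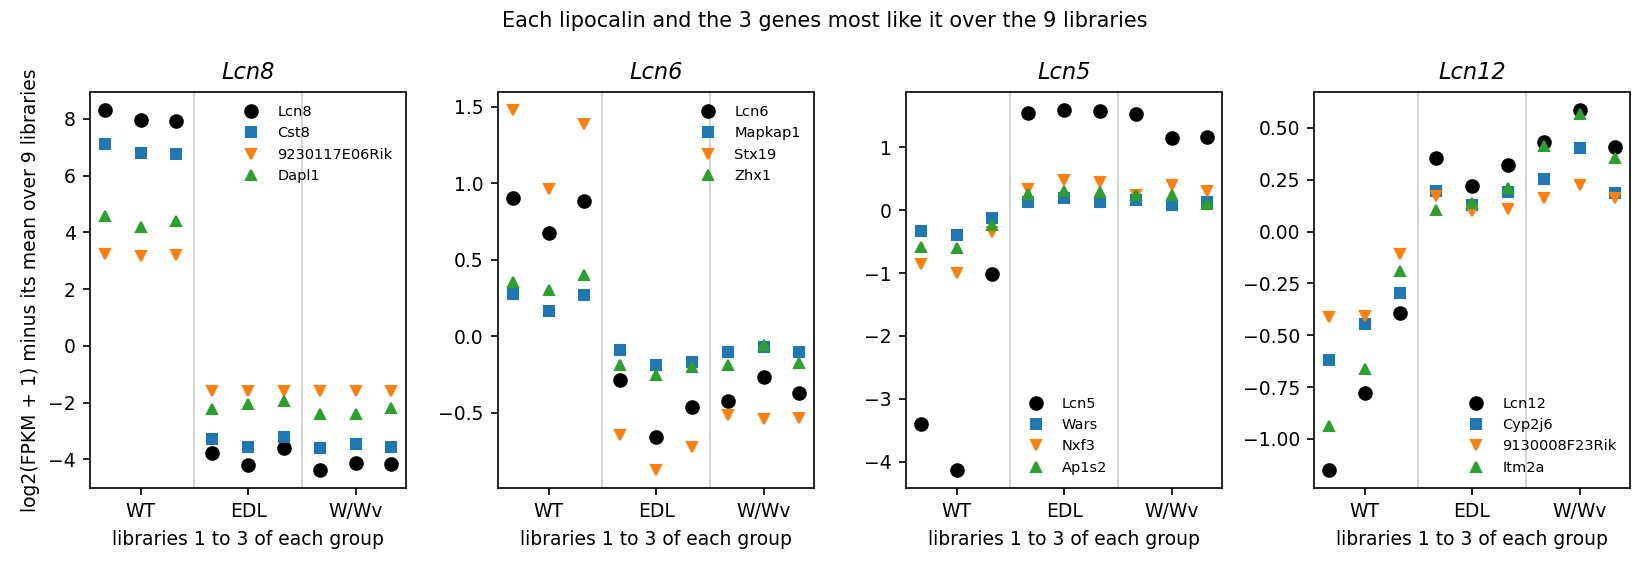
Log2(FPKM + 1) minus its mean over the 9 libraries for each lipocalin (black) and the 3 genes most like it, by library. The pattern separates WT from both models in each panel, and WT library 3 of Lcn5 and its likest genes is nearest to the models. The likest genes were chosen by r over these same 9 libraries, so their sharing of these patterns follows from the choice.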

How the data were processed

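Stranded mRNA libraries were made per the labels' protocols. TopHat2 2.1.1, Cufflinks 2.2.1 and mm10 are named in the submitters' processing notes, without role; no source used here gives the annotation, the use of strand in counting or the choice of the 2462 genes. For each library the authors deposited FPKM values and normalized counts, per the file headers. The deposited normalized count is a signal: multiplied by the factor of its library, 98.8% to 99.0% of values lay within 0.1 of a whole read. These reads gave 3536246 to 4793224 per library, which sets the precision of low values. No libraries of a group agreed within sampling noise (chi-square from 3.23 to 26.18 per gene), so none was taken for another deposited again and each was counted once. This does not show that they came from separate animals.

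Groups came from sample titles. limma 3.58.1 (R 4.3.3; trended, robust empirical Bayes) was fitted to log2(FPKM + 1) of all 9 libraries, for 2013 genes with at least 1 FPKM in 3 libraries, with Benjamini-Hochberg adjustment and a threshold of 0.05. Changes on this scale understate those of low genes. Alternatives were pseudocounts of 0.1 and 0.01, filters, scalings, a fit of 2 groups, a replicate block, empirical Bayes without the robust trend, and omission of single libraries. edgeR 4.0.16 and DESeq2 1.42.0 on recovered reads were added after seeing the data. The members and lists were chosen with earlier results of these data known. The genes named were, by rule, the members, the 3 genes most like each, and up to 4 genes of each list by mean FPKM. Kcnt1, Crisp1, Defb35 and the genes of single WT libraries were added after their values were seen. Coordinates are those of the NCBI gene table of GRCm38.p6, which held 2454 of the 2462 identifiers. Exons come from GENCODE M21. Plots used matplotlib 3.10.9.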

Additional observations from a re-analysis of the deposited data

Results flagged for a closer look

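None of the 4 lipocalins differed between the models in the direct test by limma, and none by edgeR or DESeq2 either. At an unadjusted p under 0.05 (limma) there was 1, Lcn8, and the share of all genes at that threshold was not counted. Of the 38 other genes named by rule and tested, 5 differed in the direct test, or 13.2%. This is near the 14.0% called among all genes tested. Cst12 was lower in W/Wv than in EDL, with a log2 change of -7.05 (adjusted p = 1.3e-07, limma). Dpp7, in the lipocalin locus, was lower in W/Wv, with a log2 change of -1.54 (adjusted p = 8.1e-06, limma). Fos was higher in W/Wv, with a log2 change of 1.70 (adjusted p = 0.0045, limma). Wfdc10 was lower in W/Wv, with a log2 change of -0.41 (adjusted p = 0.0061, limma). Cftr was higher in W/Wv, with a log2 change of 0.31 (adjusted p = 0.015, limma).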

How the results depend on the processing

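Over 20 alternatives, the changes of the 4 lipocalins gave 237 values with a test, of which 235 kept the direction and the side of the threshold. Both exceptions lay in W/Wv versus EDL. Lcn8 was at -0.54 without EDL library 2, within a range of -0.54 to -0.25 when each library was left out. Lcn5 was at 0 under quantile normalization, which gives genes of equal rank the same value, and Lcn5 ranked 3 in every library of both models. DESeq2 gave no adjusted p for Lcn5. Against WT, the log2 change over all alternatives ranged from -12.29 to -11.24 for Lcn8 in EDL and from -12.8 to -11.59 in W/Wv, and from 3.75 to 5.34 and 3.49 to 5.05 for Lcn5. The count of genes called in W/Wv versus EDL, 281, rose to 428 in a fit of these groups alone, and ranged from 172 to 388 when each library was left out. By edgeR 210 genes were higher and 127 lower in W/Wv, against 140 and 141 by limma; the cause was not tested. Samples with the same replicate number did not deviate together (correlations -0.34 to 0.08), so the numbers gave no sign of pairing. This cannot exclude a pairing, since samples of different numbers were not compared. With a replicate block 1485 genes were called in EDL versus WT, 1380 in W/Wv versus WT and 219 in W/Wv versus EDL. The block gave Lcn5 and every other member the same call. With 3 libraries a group, and 110 and 65 reads of Lcn8 in EDL and W/Wv, a difference between the models of about 1.4-fold in Lcn8 could not be settled.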

Other observations

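WT library 2, the lowest in Lcn5, was at least 2-fold above both other WT libraries in 3 genes, picked after their values were seen. Ly6f, a small surface protein, had 16.3 FPKM there against 4.39 and 4.49 in WT libraries 1 and 3, 26.3 to 33.4 in EDL and 24.4 to 34.3 in W/Wv. Timp1, an inhibitor of metalloproteinases, had 39 FPKM against 7.54 and 9.84, with 11.7 to 16.1 in EDL and 7.56 to 9.42 in W/Wv. Spc25, a kinetochore protein, had 6.09 FPKM against 1.41 and 1.64, with 2.8 to 3.03 in EDL and 2 to 2.51 in W/Wv.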
